A study of Mus musculus with 54 samples.

Results

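The genes described here are 50 that carry cells through mitosis, the stage in which a duplicated genome is divided between daughter cells. They code for spindle, kinetochore, chromosome and cytokinesis proteins and for the kinases and other regulators that time their work. They were chosen by name and matched by NCBI gene number, and all 50 were listed in every deposited table, among 19653 genes listed in at least one table. Cyclins, cyclin-dependent kinases, securin, separase and cohesin are not among them. The rule sets no threshold on a measured value, but earlier results of these data were known when the genes were listed.

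The cells were H2K mouse myogenic progenitors, muscle precursors that are kept dividing with γ-interferon and that fuse into myotubes once serum is withdrawn. Wildtype progenitors were compared with EMD-/y progenitors, which lack emerin, a protein of the inner nuclear membrane whose loss causes Emery-Dreifuss muscular dystrophy. The other 4 lines were EMD-/y progenitors transduced by lentivirus with wildtype emerin (+EMD) or with emerin carrying one of the disease-causing changes S54F, Δ95–99 or Q133H. RNA was taken at 0, 24 and 48 h of differentiation, called days 0, 1 and 2 here, from 54 samples in 18 groups of 3 labelled replicates. Day 0 cells came from growth medium with γ-interferon, at a lower temperature and higher CO2 than differentiating cells. The differentiation medium is described without γ-interferon. These changes cannot be told apart from time between day 0 and the later days. The disease-mutant lines were grown in puromycin throughout, and mutant lines were plated at a higher density than wildtype and EMD-/y cells. The paper describes selection and expansion in puromycin for all 4 transduced lines, also +EMD, and lists none in the differentiation medium. Puromycin selection used different doses for +EMD, Q133H and the other mutants, and transduction and puromycin cannot be told apart from the emerin form that a line carries. A vector-only line was not analysed here. The deposited tables hold the authors' mean of normalized counts for each group and no value per sample. The values below are therefore given without an SD, no difference was tested, and a gene is described as past 2-fold when its means differed at least 2-fold and the higher was at least 10 normalized counts.

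Most mitotic genes are transcribed late in the cell cycle, in G2 and mitosis, and are silent in cells that have left the cycle. In quiescent cells the DREAM complex holds them off through CHR elements in their promoters, and in cycling cells B-Myb and FoxM1, recruited through the MuvB core, together with NF-Y on CCAAT boxes, turn them on. Myoblasts normally leave the cell cycle for good before they fuse, so most of these transcripts are used as marks of cells that are still dividing. They are not a count of such cells, and the paper's counts of cells copying DNA were not set against them here. In bulk RNA, fewer dividing cells and less of each RNA per cell cannot be told apart.

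The tables listed between 17215 and 17876 genes, and the group means of a table added up to 16.7 M to 21.1 M normalized counts. Emd, the targeted gene, had means of 986.7 to 1962 in wildtype groups and of 0.141 to 3.52 in EMD-/y and all transduced groups. Whether this row can count RNA of the emerin added by lentivirus is not stated. It is therefore not used as a measure of the added emerin, also in +EMD cells. By Western blot of proliferating cells, the paper reports emerin protein in every transduced line. It gives levels similar to wildtype in +EMD, S54F and Δ95–99 and a higher level in Q133H. Of 6 myogenic progenitor markers, Myod1, Des, Cdh15 and Itga7 had means of at least 6217, 9594, 3285 and 5014 in every group, while Myf5 ranged from 125.0 to 1583 and Pax7 from 3.01 to 2224. Against wildtype, Pax7 had log2 ratios of 1.16 to 4.14 in EMD-/y, +EMD, S54F and Δ95–99 over the 3 days, and of -6.70, -4.43 and -2.69 in Q133H on days 0, 1 and 2. Summed means of 4 endothelial markers reached at most 53.3, in Q133H on day 1. Those of 4 fibroblast, 4 adipocyte and 4 immune markers were highest in Q133H on day 2, at most 76.2, 11.8 and 122.0, and Tcf21 and Cidec were listed in no table. The same group appears in several separately normalized tables, and a mitotic gene's mean in one group differed by at most 1.34-fold between them.

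6 promoters are printed because they show the promoter types met among these genes: TTTGAA and CCAAT near the start, 1 of them only, and both in the gene that fell least in wildtype. Each runs from 250 bases before to 50 bases after the start of the RefSeq gene on GRCm38.p6, 5′ to 3′ on the gene's strand. TTTGAA, the letters of the commonest CHR, and CCAAT are in capitals, also where they read on the other strand (TTCAAA and ATTGG). Plk1 lies at chr7:122159185-122159484 (plus strand), Top2a at chr11:99024140-99024439 (minus), Ube2c at chr2:164769679-164769978 (plus), Anln at chr9:22389157-22389456 (minus), Cenpe at chr3:135212313-135212612 (plus) and Bub3 at chr7:131560120-131560419 (plus).
Plk1: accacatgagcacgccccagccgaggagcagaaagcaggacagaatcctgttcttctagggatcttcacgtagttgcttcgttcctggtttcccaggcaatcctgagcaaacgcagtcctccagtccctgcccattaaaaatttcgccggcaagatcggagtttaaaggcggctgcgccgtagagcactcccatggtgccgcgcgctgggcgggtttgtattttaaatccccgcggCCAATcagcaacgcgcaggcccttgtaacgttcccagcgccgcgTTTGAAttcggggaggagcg
Top2a: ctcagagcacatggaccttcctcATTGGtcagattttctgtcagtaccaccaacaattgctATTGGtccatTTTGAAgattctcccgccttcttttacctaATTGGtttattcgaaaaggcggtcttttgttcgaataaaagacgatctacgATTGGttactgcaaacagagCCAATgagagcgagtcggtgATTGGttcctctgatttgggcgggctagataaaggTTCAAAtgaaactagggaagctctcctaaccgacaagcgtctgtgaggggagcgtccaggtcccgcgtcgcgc
Ube2c: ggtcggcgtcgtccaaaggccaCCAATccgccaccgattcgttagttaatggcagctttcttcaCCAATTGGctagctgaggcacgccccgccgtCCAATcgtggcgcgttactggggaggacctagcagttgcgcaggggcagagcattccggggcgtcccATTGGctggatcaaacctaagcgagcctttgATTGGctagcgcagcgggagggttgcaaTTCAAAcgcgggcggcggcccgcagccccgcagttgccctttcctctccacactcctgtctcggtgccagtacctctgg
Anln: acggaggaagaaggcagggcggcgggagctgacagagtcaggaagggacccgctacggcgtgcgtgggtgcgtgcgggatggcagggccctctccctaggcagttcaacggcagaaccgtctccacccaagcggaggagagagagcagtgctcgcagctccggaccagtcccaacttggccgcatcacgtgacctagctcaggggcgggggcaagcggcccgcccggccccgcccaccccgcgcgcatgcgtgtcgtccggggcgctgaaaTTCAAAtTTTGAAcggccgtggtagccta
Cenpe: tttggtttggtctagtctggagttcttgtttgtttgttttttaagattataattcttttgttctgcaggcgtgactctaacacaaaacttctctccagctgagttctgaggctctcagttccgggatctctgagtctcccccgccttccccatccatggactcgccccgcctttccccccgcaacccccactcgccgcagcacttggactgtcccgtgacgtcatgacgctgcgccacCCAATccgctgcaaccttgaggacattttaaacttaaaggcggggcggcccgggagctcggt
Bub3: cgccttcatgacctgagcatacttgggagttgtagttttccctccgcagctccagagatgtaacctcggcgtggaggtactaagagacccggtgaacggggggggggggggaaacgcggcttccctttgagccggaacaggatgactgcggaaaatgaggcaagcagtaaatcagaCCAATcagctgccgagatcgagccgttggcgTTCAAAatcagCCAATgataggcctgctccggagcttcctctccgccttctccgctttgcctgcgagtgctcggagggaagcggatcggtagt
TTTGAA was found in the windows of 30 of the 42 mitotic genes that have one (71.4%), against 18.1% of 27025 genes with such a window. CCAAT was in 32 of 42 (76.2%) against 37.9%, and both were in 27 of 42 (64.3%) against 7.12%. The related letters TTTAAA, which read the same on both strands, were in 10 of 42 (23.8%) against 13.2%. They stand in lower case above, in Plk1 and Cenpe. A TTTGAA between 50 bases before and 50 bases after the start, a range set after the positions had been seen, was in 25 of 42 windows (59.5%) against 4.92%. In a list of 67 other mitosis genes, 27 of the 57 with a window had TTTGAA (47.4%) and 34 had CCAAT (59.6%). In a list of 25 DNA replication genes, used to copy the genome earlier in the cell cycle, 3 of 19 windows had TTTGAA (15.8%) and 15 had CCAAT (78.9%). A match was allowed on either strand, and 1 gene, Cdca8, had overlapping TTTGAA and CCAAT matches. Aurkb, Cdc25c, Foxm1, Incenp, Kif20a, Smc4, Spc24 and Tpx2 had no window in the table used. These are matches of letters and not shown to be bound.

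In wildtype progenitors the mitotic genes were modestly lower after the first day and almost gone after the second. The 50 genes together held 0.796% of all normalized counts on day 0, 0.430% on day 1 and 0.0430% on day 2. From day 0 to day 1, 17 of 50 were past 2-fold lower and none was past 2-fold higher, where 10.6% of all genes past the floor were lower and 12.7% higher. The median log2 ratio was -0.90, from -1.58 for Foxm1 to 0.77 for Ckap2. From day 1 to day 2, 49 of 50 were past 2-fold lower, where 12.2% of all genes were lower and 8.14% higher, and the median log2 ratio was -3.97. Each of the 50 had a lower ratio over the second day than over the first, which was not counted over all genes. The steepest were Mki67, whose protein coats mitotic chromosomes, at -5.74, the microtubule-depolymerizing kinesin gene Kif2c at -5.50 and Hmmr, a spindle assembly factor gene, at -5.43. The least were Bub3 at -0.43, Smc4 at -1.40 and Spc24 at -1.47. Over the same days the 8 muscle differentiation markers had median log2 ratios of 2.30 and 1.99, with 8 of 8 and 7 of 8 past 2-fold higher.

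**Figure D1:**
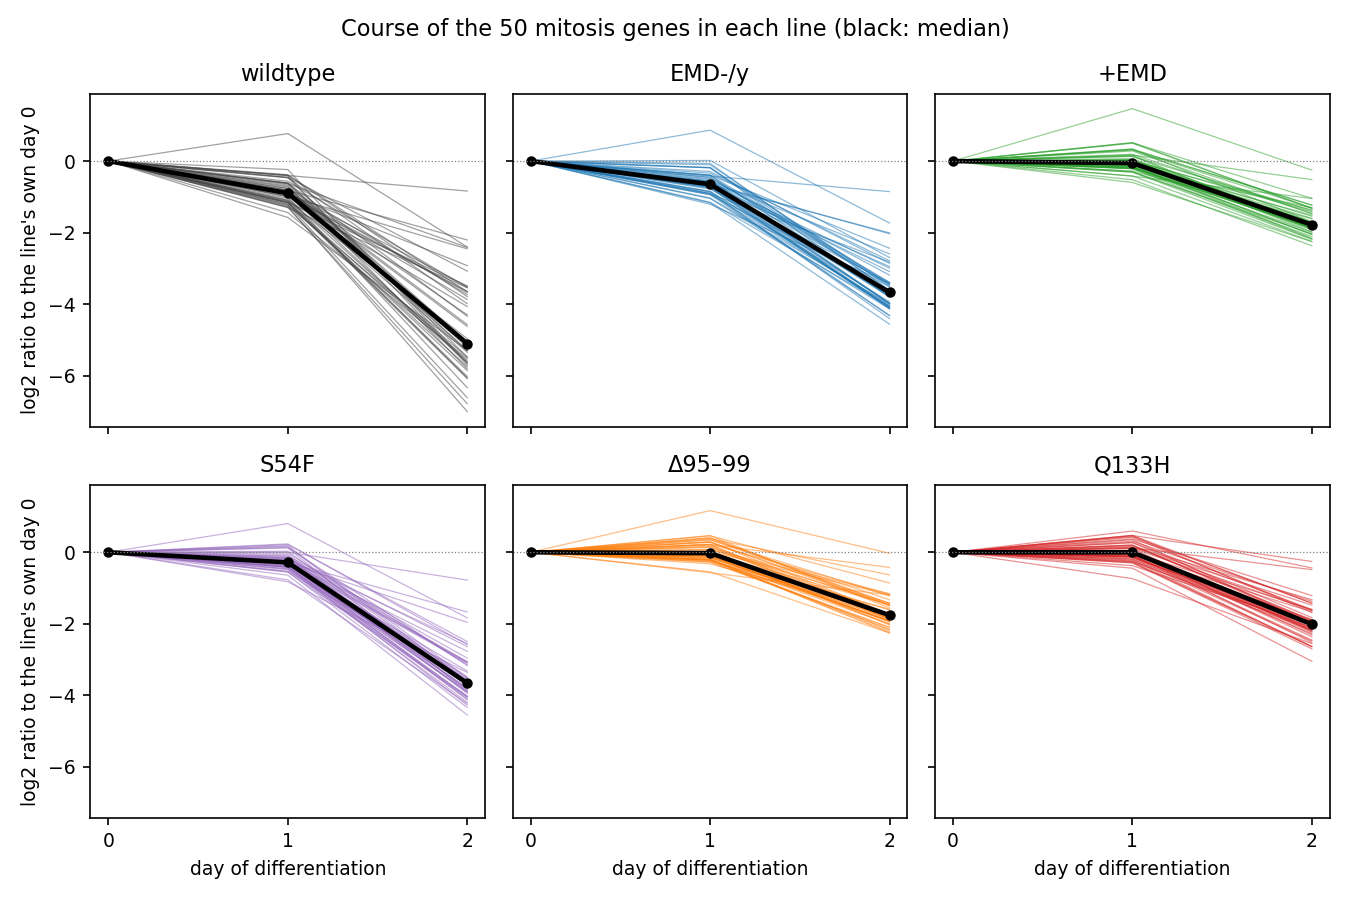
Course of the 50 mitosis genes in 6 lines. The x axis is the day of differentiation, the y axis is the log2 ratio of a gene's mean to its mean on day 0 of the same line, each thin line is a gene and the black line is the median; the ratio of day 2 chains 2 separately normalized tables. The median ends at -5.10 in wildtype, at -3.68 in EMD-/y and -3.66 in S54F, and between -2.01 and -1.76 in the other lines.

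The spindle checkpoint genes, which hold anaphase until every kinetochore is attached, split in wildtype cells. Bub1 and Bub1b, kinase-family scaffolds of the checkpoint, and Ttk, its initiating kinase, had log2 ratios of -4.55, -4.54 and -4.98 from day 1 to day 2. Mad2l1, the inhibitor of Cdc20, stood at -2.02. Bub3, the adaptor that brings Bub1 to the kinetochore, had means of 2945 on day 0 and 2227 on day 1 in one table, and of 2070 on day 1 and 1531 on day 2 in the other. Bub3 kept 56.0% of its day 0 level on day 2, the most of the 50, and its promoter holds both letter groups shown above.

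Among the kinases, Plk1, the kinase of mitotic entry and spindle poles, had wildtype means of 2965 on day 0 and 1287 on day 1, then 1190 and 50.9 on days 1 and 2 of the second table. It was 2.30-fold lower over the first day and 23.4-fold lower over the second. Aurka, the centrosomal Aurora kinase gene, was at log2 ratios of -0.39 and -3.40. Plk4, which starts centriole duplication, was among the lowest over the first day (-1.30) but among the less affected over the second (-2.24).

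Foxm1, the transcription factor of this program, had the lowest first-day ratio of the 50. Its wildtype means were 3542 and 1187 on days 0 and 1, 2.98-fold lower, and 1094 and 83.1 on days 1 and 2, 13.2-fold lower. Cdc25c, the phosphatase that activates mitotic Cdk1, came next over the first day at a log2 ratio of -1.44. Cdc20, the activator of the anaphase-promoting complex, was at -0.63 and then -4.44. Ube2c, the ubiquitin-conjugating enzyme of that complex, had means of 3877 and 2802, then 2601 and 226.4, an 11.5-fold difference over the second day. Exons of Tnnc2, a troponin gene on the opposite strand, share 22.8% of the exon bases of Ube2c, and the sources used here do not state that reads were counted by strand. Tnnc2 had means of 273.3 to 35734 over all groups, and its part in the Ube2c counts was not tested.

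The chromosomal passenger complex corrects faulty attachments and then guides cytokinesis. Its kinase gene Aurkb stood at a log2 ratio of -4.68 from day 1 to day 2, Birc5 (survivin) at -5.34 and Cdca8 (borealin) at -3.76. Its scaffold gene Incenp had means of 2126 and 1247, then 1155 and 148.2, a log2 ratio of -2.96 over the second day. Sgo1, the protector of centromere cohesion, stood at -4.42.

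The kinetochore genes also ranged widely. Cenpe, the kinesin that carries chromosomes to the metaphase plate, had means of 3576 and 2343, then 2176 and 93.5, and was 23.3-fold lower over the second day. Its window holds a CCAAT and the related TTTAAA but no TTTGAA. The 4 subunits of the NDC80 complex, the microtubule grip of the kinetochore, did not move alike: Ndc80 stood at -5.11, Nuf2 at -4.70, Spc25 at -3.27 and Spc24 at -1.47. Spc24 had means of 901.5 and 455.7, then 421.8 and 152.2. The centromeric histone gene Cenpa was at -4.32, Cenpf at -3.46, and the inner kinetochore genes Cenpi and Cenpk at -2.63 and -2.65.

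Kinesins had the lowest median of the 9 role groups over the second day (-4.73). Over the first day 6 of 8 were past 2-fold lower, where 17 of the 50 members and 10.6% of all genes were. Members of other groups were so too, among them Plk1, Plk4, Foxm1, Cdc25c, Anln and Racgap1. Kif20a, the motor of the central spindle, had means of 4429 and 2680, then 2488 and 104.8, 23.8-fold lower. Kif11, the motor that separates spindle poles, stood at a log2 ratio of -4.92, Kif23 of centralspindlin at -4.88 and Kif14 at -5.40, with a day 2 mean of 6.19, under the floor of 10. Kif22, which pushes chromosome arms, was at -2.97. Exons of Cdc23, on the opposite strand, share 29.3% of the exon bases of Kif20a. In all, 6 members share over 10% of their exon bases with another gene, the others being Kif4, Ncapg, Cdc25c and Prc1.

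Of the mitotic chromosome genes, Top2a codes for the topoisomerase that untangles sister chromatids. Its means were 13956 and 6306, then 5838 and 260.1, 22.4-fold lower over the second day. The condensin genes, whose ring proteins compact chromosomes, were less affected. Ncapg stood at -3.72, Smc2 at -2.98, Ncapd2 at -2.61, Ncaph at -1.79 and Smc4 at -1.40. Per kilobase of the length the table gives, Ube2c, Top2a and Birc5 had the highest wildtype levels on day 0 (4124, 2643 and 1931 normalized counts per kb), and Kif14 the lowest (78.5).

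Among the spindle microtubule genes, Tpx2, the activator of Aurora A, had means of 4877 and 2694, then 2500 and 183.4, 13.6-fold lower over the second day. Nusap1 stood at -5.03, Ckap2l at -5.30 and Prc1, the antiparallel microtubule bundler, at -2.75. Ckap2, a microtubule stabilizer, was the only member with a higher mean on day 1 than on day 0 in wildtype cells, 3625 against 2125, before it was 9.03-fold lower on day 2. Of the cytokinesis genes, Anln (anillin), the scaffold of the contractile ring, had means of 7962 and 3362, then 3117 and 165.6, 18.8-fold lower. The centralspindlin gene Racgap1 and the exchange factor gene Ect2, which switches on RhoA at the furrow, stood at -2.34 and -2.96.

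The first day looked different in the other lines. EMD-/y progenitors had 5 of 50 members past 2-fold lower from day 0 to day 1 (Plk1, Plk4, Cdc25c, Foxm1 and Anln), where 9.67% of all genes were, and a median log2 ratio of -0.65. None was past 2-fold higher there, where 12.2% of all genes were. In the 4 transduced lines none was past 2-fold lower, where 7.17% of all genes were lower in +EMD, 7.49% in S54F, 6.96% in Δ95–99 and 6.60% in Q133H. The medians were -0.28 in S54F, -0.05 in +EMD, -0.02 in Δ95–99 and 0.00 in Q133H. Plk1 had means of 3138 and 2860 in +EMD, 3576 and 3127 in Δ95–99, and 3480 and 2989 in Q133H on days 0 and 1. Ckap2 was past 2-fold higher in +EMD (2.77-fold, where 10.7% of all genes were higher) and in Δ95–99 (2.24-fold, where 7.53% were), and no member was so in S54F or Q133H, where 9.62% and 5.95% of all genes were. The mean of Ckap2 was higher on day 1 in all 6 lines, with log2 ratios from 0.47 in Q133H to 1.47 in +EMD. All 50 members had a higher first-day ratio than in wildtype in +EMD, S54F and Δ95–99, 49 in Q133H and 48 in EMD-/y. The same was not counted over all genes. The median difference from the wildtype log2 ratio was 0.24 in EMD-/y, 0.57 in S54F, 0.80 in +EMD, 0.84 in Δ95–99 and 0.87 in Q133H.

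Over the second day the genes were lower in every line, but by very different amounts. From day 1 to day 2, 49 members were past 2-fold lower in EMD-/y and S54F (11.4% of all genes in each), and 48 in +EMD (9.85%), Δ95–99 (5.49%) and Q133H (4.54%). None was past 2-fold higher, where 7.81% of all genes were in EMD-/y, 9.54% in S54F, 11.2% in +EMD, 9.17% in Δ95–99 and 6.55% in Q133H. The median log2 ratio was -3.43 in S54F, -3.09 in EMD-/y, -2.04 in Q133H, -1.77 in Δ95–99 and -1.73 in +EMD. Of the 50, 47 were past 2-fold lower in all 6 lines. Bub3 was so in none, Spc24 in 4 and Ckap2 in 5. The share of all genes past 2-fold lower in all 6 lines was not computed. The members also lay closer together in the lines with small differences: between the quartiles the log2 ratios spanned 1.69 in wildtype, 0.81 in EMD-/y, 0.78 in S54F, 0.49 in Q133H, 0.33 in Δ95–99 and 0.26 in +EMD. The second-day log2 ratio was less negative than in wildtype for 46 members in EMD-/y, 38 in S54F, 49 in +EMD, 49 in Δ95–99 and 47 in Q133H. How many other falling genes did so was not counted. The members with the largest difference from wildtype were Mki67 and Kif14 in EMD-/y (2.38 and 2.29) and Kif14 and Mki67 in S54F (2.16 and 1.83). They were Mki67 and Ckap2l in +EMD (3.89 and 3.64) and in Δ95–99 (4.03 and 3.66), and Hmmr and Ckap2l in Q133H (3.33 and 3.15). The differences of Kif14 rest on its wildtype day 2 mean of 6.19, under the floor. Ncaph and Mad2l1 lay on the other side in EMD-/y (-0.26 and -0.21) and S54F (-0.75 and -0.48), Bub3 did in +EMD (-0.25) and Δ95–99 (-0.20), and Spc24 and Smc4 did in Q133H (-0.34 and -0.20). Ncaph in +EMD and Smc4 in Δ95–99 were the next lowest, at 0.27 and 0.18.

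**Figure D2:**
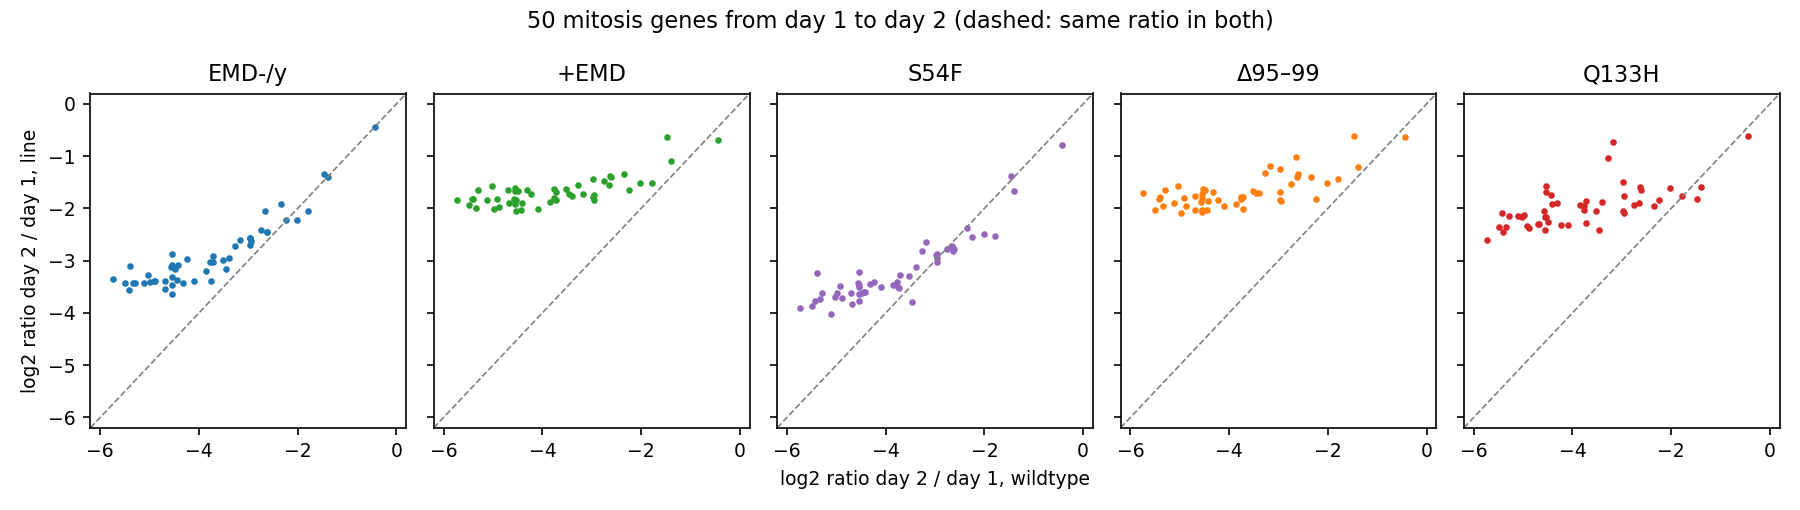
Log2 ratio of the day 2 mean to the day 1 mean of the 50 mitosis genes in 5 lines (y axis) against the same ratio in wildtype (x axis), a point per gene, with a dashed line where both are equal. In EMD-/y and S54F 46 and 38 points lie above the dashed line and 4 and 12 below it, while in +EMD, Δ95–99 and Q133H the points form a nearly flat band with medians between -2.04 and -1.73.

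Across the 50 genes, Pearson's r between a line's second-day ratio and that of wildtype was 0.91 in EMD-/y, 0.90 in S54F, 0.76 in +EMD, 0.72 in Δ95–99 and 0.65 in Q133H. These are descriptions over genes of the same libraries, which are not independent replicates. The order of the role groups was partly kept: kinesins had the lowest median in wildtype (-4.73) and Q133H (-2.25), while passenger complex genes did in EMD-/y (-3.40) and S54F (-3.60), and mitotic entry and exit genes did in +EMD (-1.92) and Δ95–99 (-1.98). Mitotic chromosome genes had the least negative median in EMD-/y, +EMD and Δ95–99 (-2.57, -1.52 and -1.44).

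**Figure D3:**
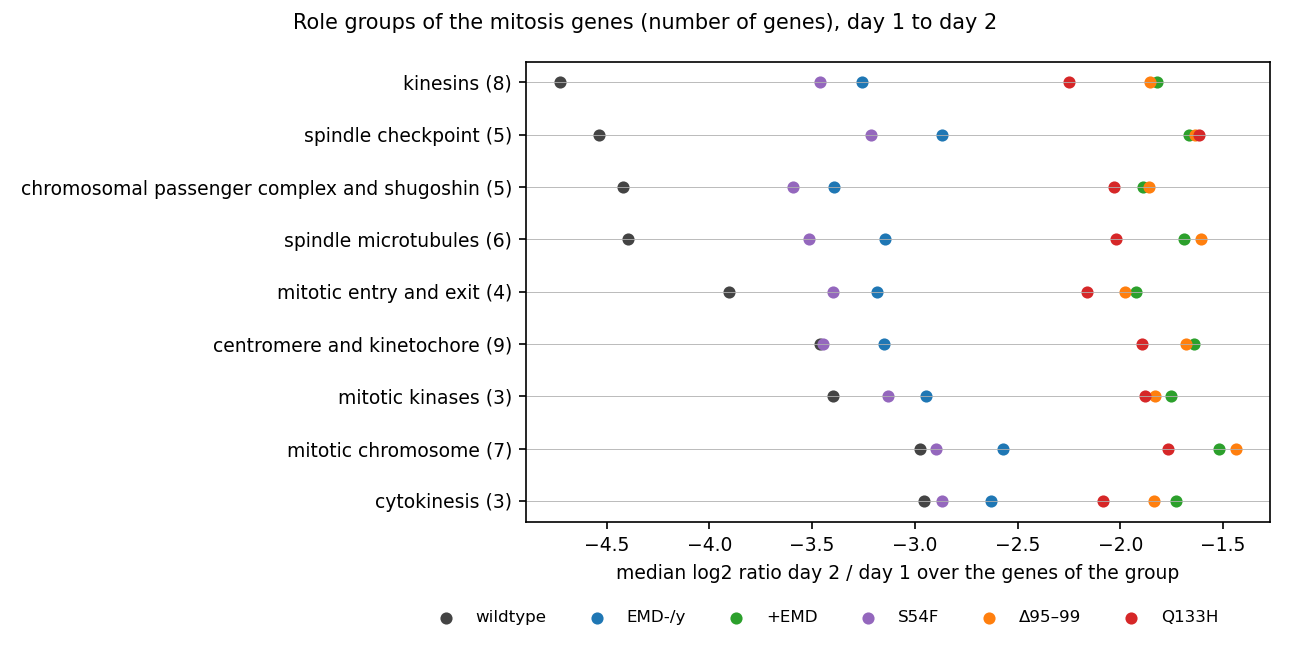
Median log2 ratio of the day 2 mean to the day 1 mean (x axis) over the genes of each of 9 role groups (y axis, with the number of genes), a point per line. In every group wildtype has the lowest median and +EMD, Δ95–99 and Q133H the 3 highest.

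Chaining both days, a median of 2.91% of the day 0 level was left on day 2 in wildtype, 7.83% in EMD-/y, 7.91% in S54F, 24.8% in Q133H, 29.1% in +EMD and 29.5% in Δ95–99. These percentages join 2 separately normalized tables. Under 10% was left for 43 members in wildtype, 36 in EMD-/y and 34 in S54F, and for none in the other 3 lines. Mki67 kept 0.778% in wildtype, 5.80% in EMD-/y, 4.27% in S54F, 12.1% in Q133H, 19.4% in +EMD and 20.9% in Δ95–99. Foxm1 kept 2.54% in wildtype and between 5.97% and 21.5% in the others. For 45 of 50 members the lines fell into the same order, with wildtype lowest, EMD-/y and S54F next, and +EMD, Δ95–99 and Q133H above both. The exceptions were Bub3, Mad2l1, Cenpf, Spc24 and Ncaph. How often other genes follow this order was not computed. Ckap2 kept 18.9% in wildtype but 98.1% in Δ95–99, 84.0% in +EMD and 83.7% in Q133H.

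Comparing each line with wildtype on the same day placed these differences in time. The 5 comparisons of a day share the wildtype samples, so their values are set side by side and are not independent. On day 0 none of the 50 was past 2-fold higher or lower in any line, where 3.94% of all genes were lower and 5.18% higher in EMD-/y. The shares of all genes were 11.0% and 6.30% in +EMD, 6.32% and 6.00% in S54F, 6.92% and 5.82% in Δ95–99, and 8.67% and 6.45% in Q133H. The medians lay between -0.19 in EMD-/y and -0.04 in Δ95–99. Ncapd2, a condensin gene, was the highest in EMD-/y, S54F and Q133H (log2 ratios of 0.28, 0.40 and 0.57) and Ckap2l the highest in +EMD and Δ95–99 (0.78 and 0.81). The lowest were Mki67 in EMD-/y (-0.49), Ube2c in +EMD (-0.47), Ect2 in S54F (-0.62) and Spc24 in Δ95–99 and Q133H (-0.60 and -0.53).

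On day 1 none was past 2-fold higher in EMD-/y, where 4.79% of all genes were, and the median log2 ratio was 0.05. Ncapd2 and Bub1b were highest there, at 0.53 and 0.44, and Ect2 lowest, at -0.31. Only Bub1b was past 2-fold in S54F (2.01-fold, where 5.84% of all genes were higher), with a median of 0.49 and all 50 ratios positive. None was past 2-fold lower in any line on day 1, where 2.89% of all genes were in EMD-/y, 6.69% in S54F, 10.9% in +EMD, 12.3% in Δ95–99 and 14.9% in Q133H. In +EMD 11 members were past 2-fold higher (9.20% of all genes), in Δ95–99 15 (9.05%) and in Q133H 15 (9.70%), with medians of 0.84, 0.89 and 0.78. With both groups scaled to the same sum of means, the counts were 20 in +EMD (10.6% of all genes), 28 in Δ95–99 (11.4%) and 2 in S54F (6.14%). Without this scaling, Plk1, Foxm1, Aurkb, Kif11 and Ncapd2 were past 2-fold in +EMD, Δ95–99 and Q133H. Foxm1 had means of 2905 in +EMD, 2889 in Δ95–99 and 2616 in Q133H, against 1222, 1253 and 1251 in wildtype. Bub1b had the highest ratio in +EMD and Δ95–99 (3.01-fold and 2.85-fold), and Cenpe in Q133H (2.52-fold). Spc24 was the lowest in all 3, at log2 ratios of 0.24, -0.23 and -0.32. The muscle differentiation markers were lower on this day in the same lines: 7 of 8 were past 2-fold lower in +EMD (median log2 ratio -1.35), 8 of 8 in Δ95–99 (-3.40) and 8 of 8 in Q133H (-4.83), against 1 of 8 in S54F (-0.47) and 0 of 8 in EMD-/y (-0.03). Their means summed to between 221349 and 249143 in wildtype, 215065 and 231041 in EMD-/y, 149432 and 159871 in S54F, 87838 and 92061 in +EMD, 28243 and 29587 in Δ95–99, and 12806 and 22873 in Q133H, and none of the 8 was at 0. The part of cell composition in the mitotic genes was not tested.

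**Figure D4:**
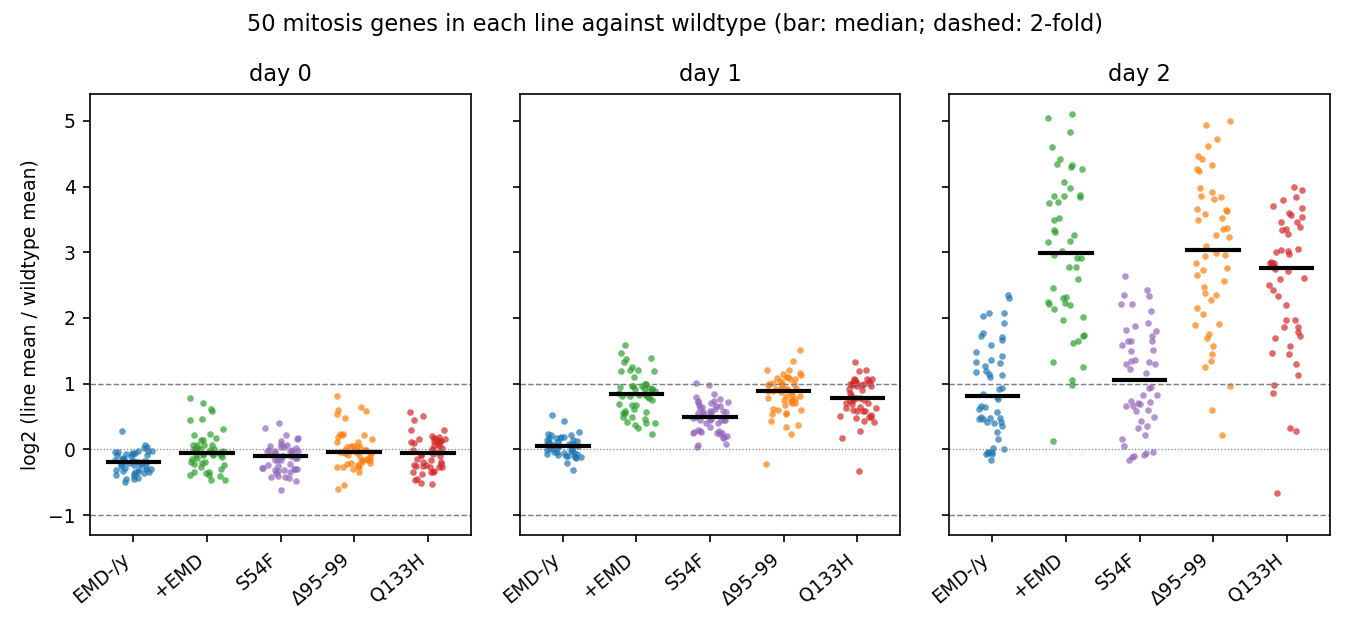
Log2 ratio of the line's mean to the wildtype mean (y axis) for the 50 mitosis genes in 5 lines (x axis) on days 0, 1 and 2, a point per gene, with the median as a bar and dashed lines at 2-fold. The points lie within 2-fold on day 0 and spread upwards by day 2, to medians of 0.82 in EMD-/y, 1.05 in S54F, 2.76 in Q133H, 2.98 in +EMD and 3.04 in Δ95–99.

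On day 2 the median of the mitotic genes was above wildtype in every line, though 6 members in EMD-/y, 6 in S54F and 1 in Q133H had ratios below 0 on the log2 scale. In EMD-/y 22 members were past 2-fold higher (5.02% of all genes), in S54F 25 (6.10%), in Q133H 45 (18.2%), in Δ95–99 47 (13.4%) and in +EMD 48 (10.9%). None was past 2-fold lower in any line, where 2.96% of all genes were in EMD-/y, 5.03% in S54F, 7.81% in +EMD, 9.10% in Δ95–99 and 15.6% in Q133H. The 50 genes together held between 0.0423% and 0.0430% of all normalized counts in wildtype, 0.0572% and 0.0590% in EMD-/y, 0.0623% and 0.0630% in S54F, 0.195% and 0.208% in Q133H, 0.220% and 0.221% in +EMD, and 0.248% and 0.25% in Δ95–99. The same 22 members were past 2-fold in all 5 lines: Bub1, Bub1b and Ttk, Plk1, Cdc20, Aurkb, Birc5 and Sgo1, Ndc80 and Nuf2, Kif11, Kif14, Kif20a, Kif23, Kif2c and Kif4, Top2a and Mki67, Hmmr, Nusap1 and Ckap2l, and Anln. A further 20 were past it in +EMD, Δ95–99 and Q133H only, and Cdc25c, Foxm1 and Cenpa also in S54F. Ncaph and Racgap1 were past it in +EMD and Δ95–99, Spc24 in +EMD, and Bub3 and Smc4 in none. The share of all genes in each such set of lines was not computed, and the 5 comparisons share the wildtype samples. Kif14 had wildtype means of only 5.60 to 6.19 on day 2, under the floor of 10, so it was counted through its higher means in the lines. Kif2c, Ttk and Ndc80, also among the 22, had wildtype means between 13.8 and 17.0, little above that floor.

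Plk1, against wildtype means of 45.8 to 53.8 on day 2, had means of 138.3 in EMD-/y, 147.0 in S54F, 430.5 in Q133H, 630.8 in Δ95–99 and 642.2 in +EMD. It was thus 3.02-fold, 3.14-fold, 8.0-fold, 12.5-fold and 13.5-fold higher. Mki67 had wildtype means of 68.4 to 80.6, and means of 348.1 in EMD-/y, 322.9 in S54F, 886.0 in Q133H, 2323 in Δ95–99 and 2434 in +EMD. Its 34.6-fold difference in +EMD was the largest of that line, and its 5.09-fold difference the largest in EMD-/y. Top2a, with wildtype means of 233.2 to 275.3, had 577.9 in EMD-/y, 600.2 in S54F, 1853 in Q133H, 3305 in Δ95–99 and 3293 in +EMD. In these genes wildtype was lowest, EMD-/y and S54F close together, and the other 3 lines well above.

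Foxm1 had wildtype means of 74.2 to 85.8, and means of 142.1 in EMD-/y, 170.1 in S54F, 461.4 in Q133H, 639.5 in Δ95–99 and 696.8 in +EMD. Anln, with wildtype means of 150.6 to 175.8, had 322.5 in EMD-/y, 398.5 in S54F, 994.7 in Q133H, 1615 in Δ95–99 and 1502 in +EMD. Kif20a, with wildtype means of 95.5 to 112.8, had 231.2 in EMD-/y, 293.8 in S54F, 929.1 in Q133H, 1101 in Δ95–99 and 984.7 in +EMD. In all 3 genes the means rank from EMD-/y over S54F to Q133H, with +EMD and Δ95–99 close together above them, as far as separately normalized tables can be set side by side.

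Cenpe departed from this in Q133H, where it had the highest ratio of the 50. Its mean there was 1648, against 1136 in Δ95–99, 727.6 in +EMD, 168.0 in S54F and 153.5 in EMD-/y, with wildtype means of 85.6 to 103.6. Kif2c came next in Q133H, 15.5-fold higher. In S54F the highest ratio was that of Kif14 (6.20-fold, against a wildtype mean under the floor), followed by Ckap2l (5.37-fold). Ckap2l led Δ95–99 (32.1-fold).

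Other members differed less between lines. Tpx2 and Incenp, of moderate steepness, were 1.69-fold and 1.33-fold higher in EMD-/y and 6.86-fold and 4.38-fold higher in +EMD on day 2. Ube2c was 1.40-fold higher in EMD-/y and S54F, and between 3.63-fold and 4.66-fold higher in the other 3 lines. In those 3 lines the sum of the muscle differentiation markers, Tnnc2 among them, was lower than in wildtype. Bub3 had means of 1409 in both EMD-/y and wildtype, and at most a 1.25-fold difference, in Q133H. Spc24 had means of 141.1 in EMD-/y, 182.9 in S54F, 305.6 in +EMD, 235.7 in Δ95–99 and 100.2 in Q133H, against wildtype means of 139.1 to 158.0. Q133H was the only line in which Spc24 was lower than wildtype, 1.58-fold, while its partner genes Ndc80, Nuf2 and Spc25 were higher there at log2 ratios of 3.67, 2.83 and 2.78. Mad2l1, Smc4, Ncaph, Plk4, Cenpi, Cenpf and Ect2, like Bub3, stood within 0.17 of wildtype on the log2 scale in both EMD-/y and S54F. On this day the muscle differentiation markers had medians of -0.11 in EMD-/y, -0.14 in S54F, -0.58 in +EMD, -1.32 in Δ95–99 and -2.85 in Q133H. In that order 0, 0, 1, 6 and 8 of 8 were past 2-fold lower. The shares of all genes were 2.96%, 5.03%, 7.81%, 9.10% and 15.6%. In Q133H the fibroblast markers summed to at least 68.7, the adipocyte markers to 10.4 and the immune markers to 108.5, against at most 45.1, 0.60 and 26.8 in wildtype. Adipoq and Ptprc reached at most 0.560 and 2.04 in any group, and the part of such cells in the mitotic genes of Q133H was not tested. The mitotic genes had day 2 medians of 0.82 in EMD-/y, 1.05 in S54F, 2.98 in +EMD, 3.04 in Δ95–99 and 2.76 in Q133H. Their relation to the muscle differentiation markers was not tested.

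Other genes of mitosis and of DNA replication, from fixed lists, had medians of the same sign as the 50 genes from day 1 to day 2 and against wildtype on days 1 and 2, in every line. Small medians of the first day differed in sign: in +EMD that of the 50 was -0.05 and that of the replication genes 0.22, and in Δ95–99 the 50 stood at -0.02, other mitosis genes at 0.06 and replication genes at 0.17. In Q133H the 50 stood at 0.00, other mitosis genes at 0.09 and replication genes at 0.16. On day 0 against wildtype, the 50, other mitosis genes and replication genes had medians of -0.05, 0.04 and 0.33 in +EMD, and of -0.04, 0.04 and 0.15 in Δ95–99. Of 67 other mitosis genes, 16 were past 2-fold lower and 1 higher in wildtype from day 0 to day 1 (median log2 ratio -0.73). Of all genes, 10.6% were lower and 12.7% higher. From day 1 to day 2, 57 of the 67 were lower and 0 higher (-2.66), against 12.2% and 8.14% of all genes. Knl1, Depdc1a and Kif15 were lowest over the second day (-5.28, -5.14 and -5.08), and Cenpw and Mad1l1 were the highest (0.44 and 0.36). Psrc1, Gtse1 and Cenpt, like Ckap2, had higher means on day 1 than on day 0 in wildtype, at log2 ratios of 1.42, 0.98 and 0.76. Against wildtype on day 2, 15 of the 67 were past 2-fold higher in EMD-/y (5.02% of all genes) and 22 in S54F (6.10%). There were 48 in Q133H (18.2%), 47 in Δ95–99 (13.4%) and 50 in +EMD (10.9%). Of 25 DNA replication genes, 6 were past 2-fold lower over the first wildtype day and 23 over the second (-0.70 and -2.13). Over these days 10.6% and 12.2% of all genes were lower. On day 2, 2 of 25 were past 2-fold higher than wildtype in EMD-/y (5.02% of all genes) and 1 in S54F (6.10%). There were 20 in Q133H (18.2%), and 22 in both Δ95–99 (13.4%) and +EMD (10.9%). On day 1, 15 were so in +EMD (median 1.27), 12 in Δ95–99 (0.98) and 7 in Q133H (0.77). In S54F 1 was (0.60), and in EMD-/y 0 (0.06). The day 1 shares of all genes in these 5 lines were 9.20%, 9.05%, 9.70%, 5.84% and 4.79%.

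Members with and without these promoter letters overlapped in their ratios. From day 1 to day 2 in wildtype, the 30 genes with TTTGAA in the window had a median log2 ratio of -4.28, from -5.74 to -0.43, and the 12 without it one of -4.14, from -5.34 to -1.79. The 32 genes with CCAAT had a median of -4.04 and the 10 without it one of -4.47. The 27 genes with both had a median of -3.76, from -5.74 to -0.43, and the 15 that lacked either one of -4.42, from -5.50 to -1.79. Birc5 at -5.34, with TTTAAA but neither TTTGAA nor CCAAT in its window, and Bub3, with both of these, lay near opposite ends.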

How the data were processed

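RNA was sequenced from 6 H2K mouse progenitor lines at 3 time points, 54 samples in 18 groups. The methods name 2 biological and 3 technical replicates, and which kind the 3 labelled replicates of a group are is not stated per sample. Any spread between them may be technical. Per the submitters' processing notes, HISAT2, DESeq2 and mm10 were used, and the gene counter and its use of strand are not given in the sources used here. The deposited signal values are the authors' mean normalized counts per group, scaled within each of 27 tables (15 of a line against wildtype, 12 of consecutive days). They were used as given. As 0 columns hold a single sample, neither its depth nor the replicate spread was analysed here. The tables also hold the authors' log2 fold changes, p-values, adjusted p-values and calls, which were not used.

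The log2 ratio of the means of a table was computed for all genes, including unnamed predicted ones. A gene was past 2-fold at a log2 ratio of at least 1 in size where the higher mean was at least 10. Gene numbers were matched to symbols with RefSeq on GRCm38.p6, exon overlaps were taken from GENCODE on GRCm38, and promoter windows from RefSeq. Gene lengths are those of the tables. The 50 genes and all other lists were chosen with earlier results of these data known. Named with values were the gene of each role group with the highest summed mean and Foxm1, the 3 lowest and 3 highest in each wildtype transition, the 2 highest and lowest in each comparison with wildtype and in each difference between transitions, and the 3 extreme other mitosis genes. Others were named to describe their role group. Alternatives were another fold threshold, another floor, a pseudocount and other scalings. Python 3.11.15, numpy 2.4.6, pandas 2.3.3 and matplotlib 3.10.9 were used.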

Additional observations from a re-analysis of the deposited data

How the results depend on the processing

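Each count of members past 2-fold was recomputed under 7 alternatives, and 164 of 189 values stayed within 1.5 times the count as reported, with none reversed. No floor, a floor of 50, a pseudocount of 10 and centring on the median of all genes moved no count beyond that. Within that range, 17 rather than 22 members were higher than wildtype on day 2 in EMD-/y with a floor of 50 or a pseudocount of 10. Of all genes, 3.49% and 3.37% were. In S54F 22 and 23 rather than 25 members were, and 4.29% and 4.10% of all genes. Counts here join both directions. At 1.5-fold the count from day 0 to day 1 was 41 in wildtype (40 lower) and 30 in EMD-/y (29 lower). It was 2 in +EMD, 4 in S54F and 2 in Q133H. Of all genes, 21.2% were lower and 21.5% higher in wildtype, and 19.7% and 21.4% in EMD-/y. Those shares were 15.4% and 19.1% in +EMD, 15.9% and 17.4% in S54F, and 14.1% and 13.0% in Q133H. Against wildtype on day 0 the count was 4 in +EMD, 1 in S54F and 5 in Δ95–99. The lower and higher shares of all genes were 18.7% and 13.9%, 11.9% and 10.7%, and 11.7% and 11.1%. On day 1 the count was 37 in +EMD, 16 in S54F, 42 in Δ95–99 and 39 in Q133H. The shares were 19.2% and 18.7% in +EMD, 12.8% and 12.2% in S54F, and 19.4% and 18.3% in Δ95–99. For Q133H the shares at 1.5-fold are not given here, and at 2-fold they were 14.9% and 9.7%. At 3-fold the count from day 0 to day 1 was 0 in wildtype, EMD-/y, +EMD and Δ95–99. The lower and higher shares of all genes were 4.7% and 6.9%, 4.5% and 6.0%, 2.8% and 5.5%, and 3.1% and 3.6%. Against wildtype on day 1 the count was 1 in +EMD and 0 in S54F, Δ95–99 and Q133H. Of all genes, 4.2% were higher in +EMD, 3.1% in S54F and 4.3% in Δ95–99. For Q133H the share at 3-fold is not given here, and at 2-fold 9.7% were higher. On day 2 the count was 11 in EMD-/y (2.2% of all genes were higher) and 16 in S54F (2.8%). These thresholds change the count by their construction. With both groups scaled to the same sum of means, 20 members were past 2-fold higher than wildtype on day 1 in +EMD. There were 28 in Δ95–99 and 2 in S54F, and 10.6%, 11.4% and 6.14% of all genes were higher in these lines. This scaling moved the median log2 ratio of all genes by between -0.27 and 0.25, and centring by at most 0.02. No paired analysis was possible because the tables hold group means only, which also means that no replicate could be left out.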

Other observations

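The MuvB core, the protein complex through which mitotic genes are both silenced and activated, was followed through its genes Lin9, Lin37, Lin52, Lin54 and Rbbp4 and its partner gene Mybl2 (B-Myb). Mybl2 was the only one of the 6 past 2-fold in any of the 27 comparisons. In wildtype its means were 985.9 on day 0 and 191.9 on day 1, then 172.7 on day 1 and 13.2 on day 2, log2 ratios of -2.36 and -3.71. Over the first day its log2 ratio was -2.09 in EMD-/y, -1.16 in S54F, -0.85 in +EMD, -0.59 in Δ95–99 and -0.13 in Q133H. Against wildtype on day 1 it stood at 0.44 in EMD-/y, 1.30 in S54F, 2.06 in Q133H, 2.13 in Δ95–99 and 2.48 in +EMD. The other 5 genes had log2 ratios between -0.76 and 0.67 in all 27 comparisons.

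Kpna2, an importin gene on the list of other mitosis genes, was singled out after its values were seen. Its wildtype means were 90.2 on day 0 and 41.8 on day 2, against 6385 and 1606 in EMD-/y, and its log2 ratio to wildtype was between 5.21 and 6.25 in all 15 comparisons of a line with wildtype. It therefore differed on day 0, when none of the 50 genes was past 2-fold.

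Psrc1, a spindle gene of the same list with the highest first-day ratio in wildtype, had a day 0 log2 ratio to wildtype of -2.09 in +EMD and 1.37 in Q133H. From day 1 to day 2 it was at -1.44 in wildtype and at -0.04 in Q133H, where its means were 3775 and 3660.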
